A study of Mus musculus with 9 samples.

Results

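The miRNAs described here are processed from introns of Htr2c, the X-linked mouse gene for a serotonin receptor that is abundant in the choroid plexus. Of 7 mature miRNAs chosen because their hairpins lie in these introns, 6 had a row among the 1448 mature miRNAs of the count table: mmu-miR-1298-5p, mmu-miR-1298-3p, mmu-miR-1264-5p, mmu-miR-1264-3p, mmu-miR-448-3p and mmu-miR-1912-3p. The 7th, mmu-miR-1911-5p, has no row in that table and its level was not analysed here. All 6 had at least 10 reads in at least 3 libraries and were therefore among the 628 miRNAs tested. The selection rule names the host gene and no measured value, although the group was proposed with earlier results of these data known.

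Small RNA was sequenced from the hippocampus of 9 adult male C57BL/6J mice, 3 in each group. The saline group received 0.9% saline. The LPS group received a single intraperitoneal dose of 1 mg/kg lipopolysaccharide, a bacterial endotoxin, and its labels also name 0.12% saline. The LPS + GAS group received the same LPS and 100 mg/kg gastrodin (GAS), a phenolic glucoside, which the labels place 1 h after LPS, while the methods also describe it as given together with LPS. The order of these injections is therefore not settled, and the labels give neither the age of the mice nor the hour at which tissue was taken. Libraries are numbered by replicate within a group and held 10119758 to 11457656 reads on miRNAs.

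A miRNA is cut from a hairpin in a longer transcript, and its 5′ arm (5p) and 3′ arm (3p) come from the same molecule. Usually one arm is loaded into an Argonaute protein and the other is degraded. Bases 2 to 8 of the mature miRNA, the seed, pair with target messenger RNAs. The choroid plexus is the ciliated secretory epithelium that makes cerebrospinal fluid. It lies in the ventricles beside the hippocampus and is known for strong transcription of Htr2c.

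The mature sequences are shown because the arms and seeds separate the 7 miRNAs from each other. Each is written 5′ to 3′ with the seed in capitals. That of mmu-miR-1911-5p is taken from RefSeq, and the others are those of the count table, which for 5 of the 6 were identical to RefSeq for GRCm38.p6.
mmu-miR-1298-5p: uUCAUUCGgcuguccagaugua
mmu-miR-1298-3p: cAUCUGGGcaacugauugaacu
mmu-miR-1264-5p: aGGUCCUCaauaaguauuuguu
mmu-miR-1264-3p: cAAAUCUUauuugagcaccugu
mmu-miR-448-3p: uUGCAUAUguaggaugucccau
mmu-miR-1912-3p: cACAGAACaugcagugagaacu
mmu-miR-1911-5p: uGAGUACAgccaugucuguuggg

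No seed is shared between any pair of the 7, and 0 other rows of the table hold any of these 7-base seeds. Shorter matches exist: bases 2 to 7 of miR-448-3p are also those of miR-153-3p, a neuronal miRNA, and bases 2 to 7 of miR-1298-5p are those of miR-12187-3p. No other row of the same length is within 3 mismatches of a measured member. Rows of other lengths were not compared.

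Htr2c covers chrX:146962513-147197277 on the plus strand of GRCm38 in GENCODE M21, 234765 bp. Its transcript Htr2c-201 has 6 exons, and the hairpins lie in 2 of the 5 introns. Intron 2 holds Mir1912 at chrX:147009441-147009527, Mir1264 at chrX:147010601-147010686 and Mir1298 at chrX:147064905-147065002. Intron 4 holds the mature miR-1911-5p at chrX:147106978-147107000 and Mir448 at chrX:147158210-147158321. A further hairpin, Mir764, lies upstream in intron 2 at chrX:147002259-147002366, and its arms are not among the 7. All are on the strand of the host gene, and none overlaps an Htr2c exon of any annotated transcript. Mir1912 and Mir1264 are 1073 bp apart, whereas 54218 bp separate Mir1264 from Mir1298 and 93207 bp separate Mir1298 from Mir448.

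**Figure D1:**
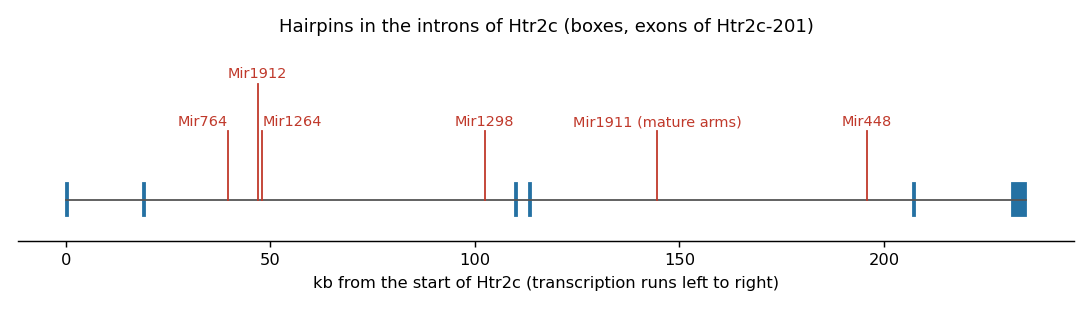
Position of the hairpins within Htr2c, drawn to scale in kb from the gene start on GRCm38, with exons as boxes. Mir764, Mir1912 and Mir1264 lie 39.7 to 48.1 kb from the gene start and Mir1298 at 102.4 kb, all in intron 2, and the arms of Mir1911 lie at 144.5 kb and Mir448 at 195.7 kb in intron 4.

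The hairpins of the 2 members whose arms were both measured are shown with the mature arms in capitals, the 5p arm first.
Mir1264 hairpin: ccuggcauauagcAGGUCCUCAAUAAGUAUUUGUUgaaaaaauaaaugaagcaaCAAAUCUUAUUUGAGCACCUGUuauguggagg
Mir1298 hairpin: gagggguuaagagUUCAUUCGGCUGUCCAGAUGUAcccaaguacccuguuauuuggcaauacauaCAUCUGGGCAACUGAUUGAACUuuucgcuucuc

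The members differed widely in level and, for 4 of the 6, between mice of the same group. Levels are in CPM, counts per 1000000 reads after scaling the library totals, and errors are SDs of 3 libraries. MiR-1298-5p was the most abundant member. It had 16416, 1829 and 1264 reads in saline replicates 1, 2 and 3, 7648, 3101 and 813 in LPS, and 32707, 1039 and 14292 in LPS + GAS. In CPM these were 1568, 162 and 127 in saline, 761, 258 and 81.8 in LPS, and 3053, 105 and 1377 in LPS + GAS. LPS + GAS replicates 1 and 3, saline replicate 1 and LPS replicate 1 were high and the other 5 libraries were low, so each group held both high and low libraries and all 3 groups overlapped. In whole hippocampal tissue, fewer cells of a type and less RNA per cell cannot be told apart.

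The mean of miR-1298-5p was 619 ± 822 CPM in saline, 367 ± 353 in LPS and 1512 ± 1478 in LPS + GAS. Its highest library was 37.3-fold above its lowest, and the replicates of a single group differed by 12.3-fold in saline, 9.31-fold in LPS and 29.1-fold in LPS + GAS. The group means thus differed by less than the mice of 1 group did.

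MiR-1264 gave both arms at measurable levels. MiR-1264-5p stood at 401, 73.4 and 160 CPM in saline, 255, 124 and 51.7 in LPS, and 614, 55.3 and 461 in LPS + GAS. MiR-1264-3p, the less abundant arm, stood at 46.6, 8.22 and 11.6 CPM in saline, 28.2, 12.6 and 5.63 in LPS, and 74.8, 5.87 and 42.0 in LPS + GAS. For both arms the same 4 libraries were highest as for miR-1298-5p, and the groups overlapped. The 5p arm averaged 211 ± 170 CPM in saline, 144 ± 103 in LPS and 377 ± 289 in LPS + GAS. The 3p arm averaged 22.1 ± 21.3, 15.5 ± 11.5 and 40.9 ± 34.5 CPM in the same order.

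MiR-448-3p, whose hairpin is the farthest into the gene, stood at 36.4, 3.01 and 2.72 CPM in saline, 19.4, 2.99 and 1.71 in LPS, and 67.7, 1.62 and 36.1 in LPS + GAS. These came from 381, 34 and 27 reads in saline, 195, 36 and 17 in LPS, and 725, 16 and 375 in LPS + GAS. It had the widest range of the members, 41.8-fold between the highest and the lowest library, and again the same 4 libraries were high. Its group means were 14.0 ± 19.4, 8.04 ± 9.87 and 35.1 ± 33.0 CPM.

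MiR-1912-3p was barely detected. It had 11, 0 and 0 reads in saline, 4, 3 and 0 in LPS, and 16, 1 and 17 in LPS + GAS. The 3 libraries with at least 10 reads were saline replicate 1 and LPS + GAS replicates 1 and 3. A count of 0 allows up to 3 reads, and with at most 17 reads in any library the fold changes given later for this miRNA rest on few counts. The group means were 0.350 ± 0.607, 0.216 ± 0.201 and 1.08 ± 0.849 CPM.

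MiR-1298-3p, the minor arm of the Mir1298 hairpin, ranged less than its partner. It stood at 5.92, 3.54 and 5.44 CPM in saline, 5.67, 6.06 and 5.73 in LPS, and 9.80, 1.31 and 5.49 in LPS + GAS, from 13 to 105 reads. LPS + GAS replicate 1 was highest and LPS + GAS replicate 2 lowest, with the other 7 libraries between 3.54 and 6.06 CPM. Its replicates spread by 1.67-fold in saline, 1.07-fold in LPS and 7.45-fold in LPS + GAS, against 12.3-fold, 9.31-fold and 29.1-fold for miR-1298-5p in the same libraries. With 13 to 73 reads outside LPS + GAS replicate 1, counting error takes a larger part of its spread than for miR-1298-5p.

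**Figure D2:**
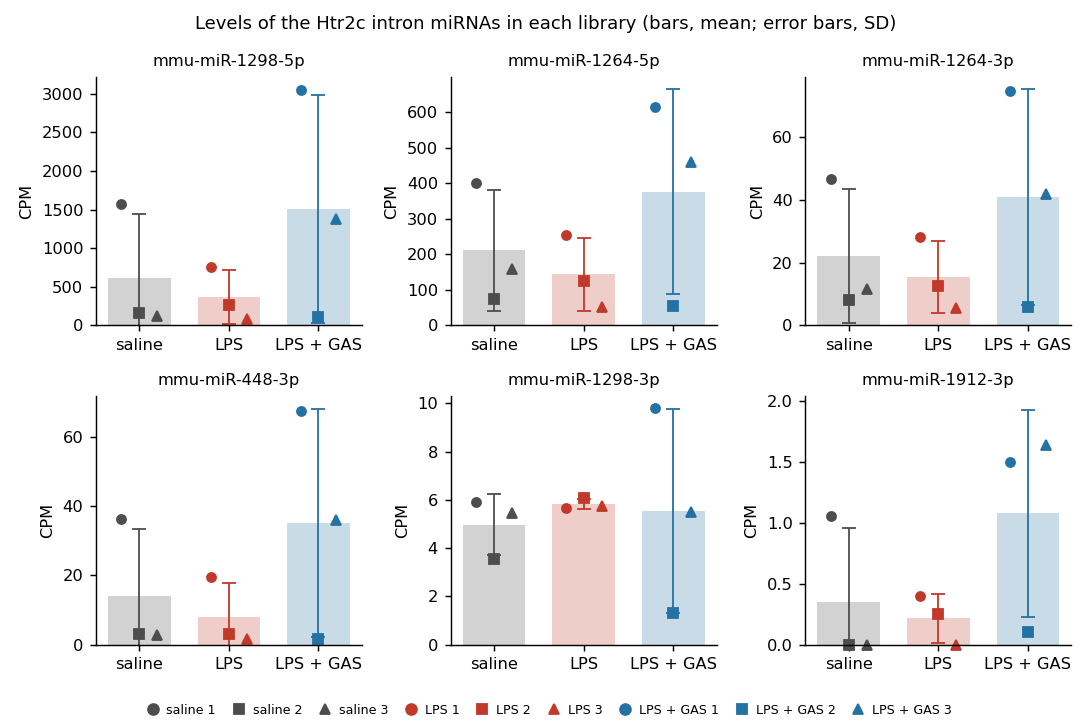
CPM of the 6 measured Htr2c intron miRNAs in each library (points), by group, with the group mean (bars) and SD of 3 libraries (error bars, cut at 0). For miR-1298-5p the libraries range from 81.8 to 3053 CPM and every group holds high and low libraries, whereas miR-1298-3p stays between 1.31 and 9.80 CPM.

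The within-group SD of log2(CPM + 1) placed 4 members among the 10 most variable of the 628 tested miRNAs, whose median was 0.279 and whose highest value was 3.59. MiR-1298-5p had an SD of 2.08 (rank 5), miR-448-3p 2.02 (rank 6), miR-1264-5p 1.45 (rank 8) and miR-1264-3p 1.41 (rank 10). MiR-1298-3p, at 0.681, ranked 43 and miR-1912-3p, at 0.553, ranked 71. On this scale low counts compress differences, which touches miR-1912-3p most.

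Summed over the 6 members, the level was 2060, 250 and 307 CPM in saline, 1070, 404 and 147 in LPS, and 3821, 169 and 1923 in LPS + GAS. MiR-1298-5p contributed 41.5 to 79.9% of this sum. As a share of all reads on miRNAs, the members made up between 0.0143% (LPS replicate 3) and 0.382% (LPS + GAS replicate 1). LPS + GAS replicate 1 was among the 2 highest libraries for 6 of 6 members and saline replicate 1 among the 4 highest for 6 of 6. LPS replicate 1 and LPS + GAS replicate 3 were among the 4 highest for 5 of 6.

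The other arms of these hairpins, which were not among the 7, gave 4 rows, and 2 of them passed the filter. MiR-764-5p, from the hairpin nearest to the gene start, stood at 22.2, 11.5 and 17.8 CPM in saline, 18.7, 18.6 and 6.54 in LPS, and 33.5, 4.45 and 24.5 in LPS + GAS. MiR-448-5p stood at 3.63, 2.21 and 1.91 CPM in saline, 2.39, 2.91 and 1.11 in LPS, and 5.79, 0.607 and 4.33 in LPS + GAS. Both were highest in LPS + GAS replicate 1 and lowest in LPS + GAS replicate 2, and their ranges of 7.53-fold and 9.54-fold were narrower than those of miR-1298-5p and miR-448-3p. MiR-764-3p had 1 to 11 reads in each library, and miR-1912-5p had 1 read in all.

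The arm ratio within a hairpin does not depend on how libraries are scaled. For Mir1264 the 5p arm had 8.61, 8.92 and 13.8 times the reads of the 3p arm in saline, 9.06, 9.86 and 9.18 in LPS, and 8.22, 9.43 and 11.0 in LPS + GAS. Across 9 libraries in which the level of each arm changed by over 10-fold, the ratio spanned 1.68-fold. For Mir1298 the ratio was 265, 45.7 and 23.4 in saline, 134, 42.5 and 14.3 in LPS, and 312, 79.9 and 251 in LPS + GAS, a span of 21.8-fold. The ratio was highest in the 4 libraries in which miR-1298-5p was highest. In LPS replicate 3 the 5p arm made up 93.5% of the reads of the pair (95% exact binomial interval 91.6 to 95.0%, counting error only), and in LPS + GAS replicate 1 it made up 99.7% (99.6 to 99.7%).

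Mir448 went the other way round, with the 3p arm the abundant one. Its 5p to 3p ratio was 0.0997, 0.735 and 0.704 in saline, 0.123, 0.972 and 0.647 in LPS, and 0.0855, 0.375 and 0.120 in LPS + GAS. In the 4 libraries with the most miR-448-3p the 5p arm was therefore a small fraction, while in LPS replicate 2, with 35 and 36 reads, the arms were nearly equal. In both Mir1298 and Mir448 the major arm ranged more widely than the minor one.

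**Figure D3:**
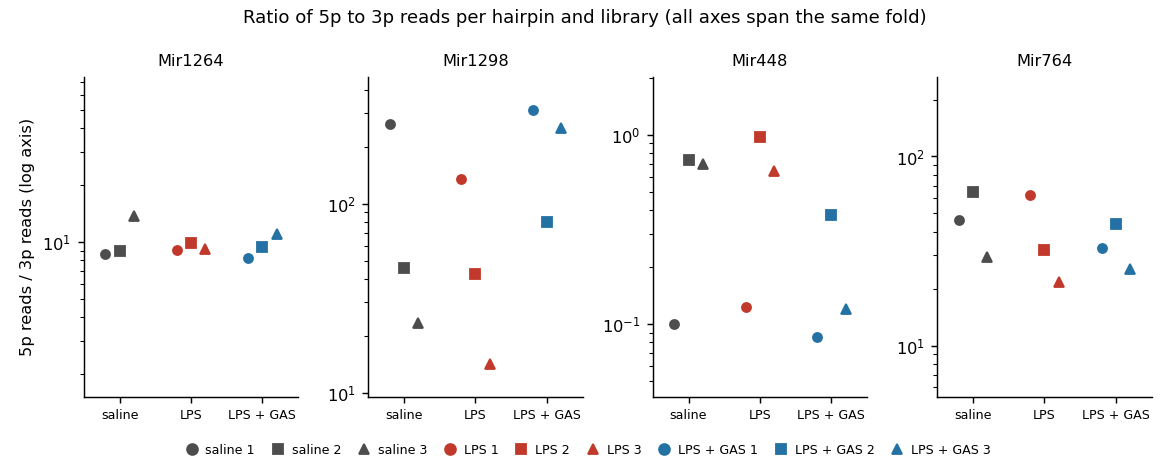
Reads of the 5p arm over reads of the 3p arm in each library for Mir1264, Mir1298, Mir448 and Mir764, on log axes that all span the same fold. The Mir1264 ratio stays between 8.22 and 13.8, whereas the Mir1298 ratio runs from 14.3 to 312.

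By group, the log2 arm ratio of Mir1264 differed by −0.12 between LPS and saline, 0.018 between LPS + GAS and LPS and −0.11 between LPS + GAS and saline, with exact two-sided permutation p = 1, 0.9 and 0.8. That of Mir1298 differed by −0.60, 2.09 and 1.49, with exact two-sided permutation p = 0.6, 0.2 and 0.3. With 3 libraries against 3 the smallest p possible is 0.1. Without saline replicate 1 the Mir1298 difference between LPS and saline was 0.41 instead of −0.60, and without LPS replicate 3 it was 0.20. The difference of 2.09 was 1.29 without LPS replicate 3 and 2.90 without LPS replicate 1, and that of 1.49 was 0.74 without saline replicate 3 and 2.49 without saline replicate 1. The sign of the Mir1264 differences also turned without single libraries: 0.094 and 0.11 against saline without saline replicate 3, and −0.0059 without LPS replicate 1 or −0.088 without LPS + GAS replicate 3 for LPS + GAS against LPS.

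The first comparison of the study asks which miRNAs LPS changes. In LPS against saline, 5 of the 6 members had lower and 1 a slightly higher mean, and none passed the test of edgeR's quasi-likelihood with Benjamini-Hochberg adjustment (the calls required an adjusted p no higher than 0.05 and a change of 1 or more in log2 units). Of all 628 miRNAs, 42.5% had a log2 fold change above 0, so lower was also the commoner direction among them. The share called among the 628 was 0% (15 had an unadjusted p under 0.05, and the DESeq2 Wald test called 1). The log2 fold changes, each with its SE, were −0.81 ± 1.34 for miR-448-3p, −0.75 ± 1.23 for miR-1298-5p and −0.65 ± 1.57 for miR-1912-3p. They were −0.56 ± 0.86 for miR-1264-5p, −0.52 ± 0.91 for miR-1264-3p and 0.23 ± 0.53 for miR-1298-3p. The adjusted p in edgeR's quasi-likelihood test was 0.992 for each, and exact two-sided permutation p-values on CPM were 0.3 to 1.

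No member was lower by a log2 fold change of 1 or more, against a background of 0.478% of the 628. The LPS and saline libraries did not overlap for 0 of 6 members, against 3.82% of all tested. Saline replicate 1 set the sign: without it the log2 fold changes were 1.37 for miR-1298-5p, 1.50 for miR-448-3p, 0.68 for miR-1264-3p and 0.34 for miR-1264-5p. Without LPS replicate 1 they were −1.87, −2.56, −1.27 and −1.26. MiR-1912-3p no longer passed the filter without saline replicate 1.

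The second comparison asks which miRNAs gastrodin changes after LPS. In LPS + GAS against LPS, 5 of the 6 members had higher means by a log2 fold change of at least 1, and no member was called. The background was 22 of the 628 tested (3.5%), these 5 included. The 5 were highest in the same 4 libraries and 2 of them are arms of 1 hairpin, so they are not independent observations. Their count includes miR-1912-3p, which passed the filter only through saline replicate 1 and LPS + GAS replicates 1 and 3. Its place in that count is therefore not independent of the filter. With at least 50 reads in 3 libraries, which miR-1912-3p failed, the log2 fold change was 2.16 for miR-448-3p, 2.07 for miR-1298-5p and 1.42 for miR-1264-3p. MiR-1264-5p was then at 1.40 and miR-1298-3p at −0.059. The share called among all 628 was 0% (23 had an unadjusted p under 0.05, and the DESeq2 Wald test also called 0). The log2 fold changes with SE were 2.26 ± 1.40 for miR-1912-3p, 2.13 ± 1.33 for miR-448-3p and 2.04 ± 1.23 for miR-1298-5p. They were 1.40 ± 0.91 for miR-1264-3p and 1.39 ± 0.86 for miR-1264-5p, and −0.069 ± 0.53 for miR-1298-3p. The median over the 6 was 1.72, while that of all 628 was 0.00303, and the SEs were large beside the median SE of 0.282. This median also includes miR-1912-3p, and the other 5 members ran from −0.069 to 2.13.

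The adjusted p in edgeR's quasi-likelihood test was 0.903 for 5 members and 0.996 for miR-1298-3p, and exact two-sided permutation p-values were 0.3 to 0.7. The libraries of LPS + GAS and LPS did not overlap for 0 of 6 members, against 8.6% of all tested, and LPS + GAS replicate 2 was among the 2 lowest libraries for 5 of them. Without LPS + GAS replicate 1, the log2 fold change of miR-1298-5p was 1.01 and that of miR-448-3p 1.23. MiR-1264-5p then stood at 0.83, miR-1264-3p at 0.62 and miR-1298-3p at −0.78. Without LPS replicate 1, miR-1298-5p was at 3.15 and miR-448-3p at 3.89. Without LPS + GAS replicate 2, miR-1298-3p was higher in LPS + GAS, by 0.39 in log2 units.

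Of the other arms, both that were tested had higher means too, with log2 fold changes of 0.51 ± 0.64 for miR-764-5p and 0.74 ± 0.64 for miR-448-5p in LPS + GAS against LPS, and neither was called.

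LPS + GAS against saline uses samples of both comparisons above and is not independent of them. All 6 members had higher means, as did 44.1% of the 628 tested, and none of the 6 was called. By a log2 fold change of at least 1, 3 members were higher, among 11 of the 628 (1.75%). The 3 include miR-1912-3p, which passed the filter only through saline replicate 1 and LPS + GAS replicates 1 and 3. With at least 50 reads in 3 libraries, miR-448-3p was at 1.39, miR-1298-5p at 1.36, miR-1264-3p at 0.95, miR-1264-5p at 0.89 and miR-1298-3p at 0.21. The share called among all 628 was 0.159%, a single miRNA. The log2 fold changes with SE were 1.61 ± 1.23 for miR-1912-3p, 1.32 ± 1.32 for miR-448-3p and 1.29 ± 1.23 for miR-1298-5p. They were 0.88 ± 0.91 for miR-1264-3p, 0.83 ± 0.86 for miR-1264-5p and 0.16 ± 0.53 for miR-1298-3p. The adjusted p in edgeR's quasi-likelihood test was 0.998 for each member, and exact two-sided permutation p-values were 0.2 to 0.9. No member had groups that did not overlap, against 7.32% of all tested. Without LPS + GAS replicate 1, miR-1298-5p stood at 0.28, miR-448-3p at 0.45 and miR-1298-3p at −0.50. MiR-1298-5p and miR-448-3p were at 1.84 and 1.89 without LPS + GAS replicate 2, and at 3.42 and 3.64 without saline replicate 1. They were at 0.87 and 0.88 without saline replicate 2, and at 0.81 and 0.84 without saline replicate 3. These fits and permutations held no pairing of libraries. With the replicate number as a block the log2 fold changes were 1.71 for miR-1298-5p, 1.65 for miR-448-3p and 1.78 for miR-1912-3p. They were 0.93 for miR-1264-3p, 0.81 for miR-1264-5p and −0.0022 for miR-1298-3p.

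**Figure D4:**
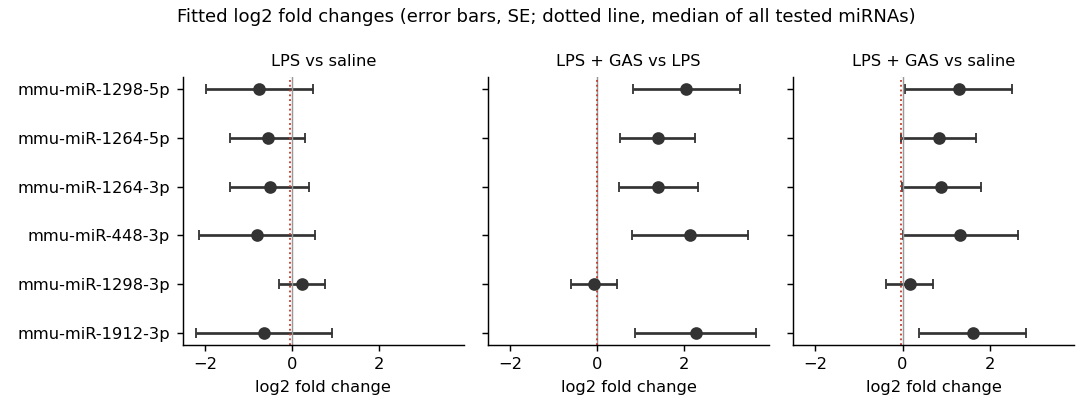
Log2 fold change (points) with SE (error bars) of the 6 measured Htr2c intron miRNAs in each comparison, with the median of all 628 tested miRNAs as a dotted line. For every member except miR-1298-3p the point of LPS + GAS against LPS lies highest of the 3, with miR-448-3p at 2.13. MiR-1912-3p, at 2.26, passed the filter only through saline replicate 1 and LPS + GAS replicates 1 and 3. MiR-1298-3p lies within its SE of 0 in all 3 comparisons.

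Markers of the choroid plexus were looked at beside these values, from lists that were chosen with earlier results known. MiR-204-5p, hosted by Trpm3 and abundant in choroid plexus epithelium, stood at 26893, 8994 and 10325 CPM in saline, 20913, 9478 and 9098 in LPS, and 51934, 11645 and 23721 in LPS + GAS. Its 4 highest libraries were the 4 highest of miR-1298-5p, miR-1264-5p, miR-1264-3p and miR-448-3p. In the other 5 libraries miR-204-5p varied little, from 8994 to 11645 CPM, while miR-1298-5p still ran from 81.8 to 258 CPM. A correlation over all 9 libraries therefore rests mostly on the step between these sets.

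**Figure D5:**
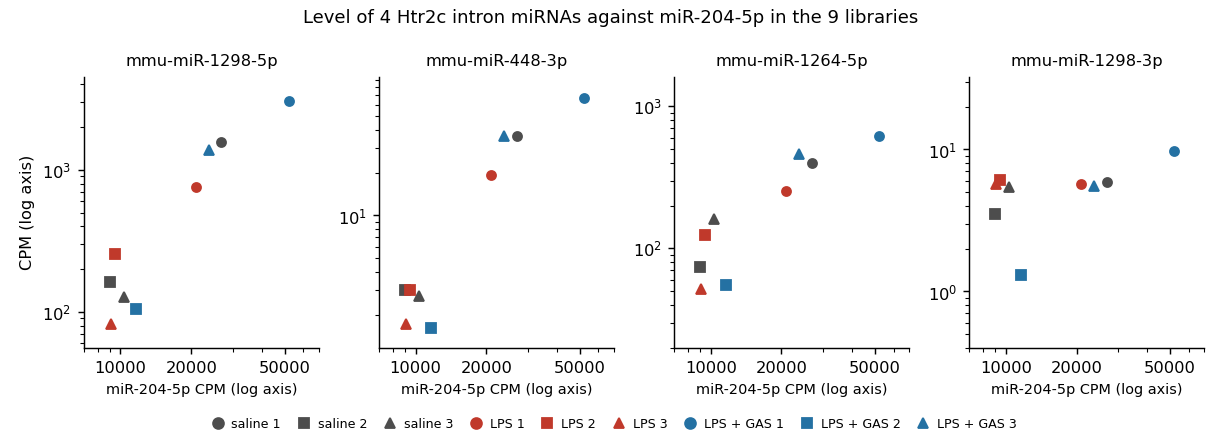
CPM of miR-1298-5p, miR-448-3p, miR-1264-5p and miR-1298-3p against that of miR-204-5p in the 9 libraries, all axes logarithmic, with colour for the group and shape for the replicate. The same 4 libraries lie to the upper right for the first 3, while miR-1298-3p stays between 1.31 and 9.80 CPM.

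The summed level of the choroid plexus list, of which 3 of 4 were tested and miR-211-3p had 0 reads in every library, ranged over 9045 to 27040 CPM in saline, 9137 to 21030 in LPS and 11720 to 52100 in LPS + GAS. Its 3 tested miRNAs were higher in LPS + GAS than in LPS with a median log2 fold change of 1.14, and 0 of 3 were called. The multiciliated list, miR-34b, miR-34c and miR-449 of ependyma and choroid plexus, ranged over 301 to 1609 CPM in saline, 418 to 964 in LPS and 443 to 3291 in LPS + GAS. All 5 of its tested miRNAs were higher in LPS + GAS than in LPS, with a median of 1.54, and 0 of 5 were called. Of all 628 tested miRNAs, 50.6% were higher in that comparison. MiR-211-5p, of the choroid plexus list, did not share all 4 high libraries: it stood at 44.2, 11.8 and 12.9 CPM in saline, 11.7, 20.5 and 14.3 in LPS, and 55.1, 15.8 and 32.1 in LPS + GAS. LPS replicate 1, high for miR-1298-5p and miR-204-5p, was thus its lowest library, level with saline replicate 2. The part of these cells in the members' values was not tested.

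Red blood cell miRNAs, led by miR-451a, were also higher in LPS + GAS than in LPS, with a median log2 fold change of 1.03 and 0 of 5 called. Their summed level ranged over 2065 to 4317 CPM in saline, 2189 to 3274 in LPS and 4606 to 6222 in LPS + GAS. Their pattern by library was another one: LPS + GAS replicate 2, among the lowest for the members, had 4866 CPM of miR-451a, more than any saline or LPS library. The part of blood in the members' values was not tested. The epithelium list (miR-200 family and miR-182, miR-183 and miR-96) had 5 of 8 higher and 3 lower, with a median of 0.15 and 0 called.

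Neuronal miRNAs were present in every library, which does not by itself identify the labelled region. MiR-124-3p, a neuronal miRNA, stood at 41631 to 81557 CPM. The summed level of the 7 miRNAs of the neuron list ranged over 67750 to 94040 CPM in saline, 93630 to 110400 in LPS and 84430 to 112800 in LPS + GAS. The lowest miR-124-3p level, 41631 CPM, was in saline replicate 1, a library high for the members. LPS replicate 1, also high for most members, had 71606 CPM, and saline replicate 2, low for the members, had 61028 CPM. Over the 9 libraries miR-124-3p ran against the members, with Pearson's r of log2(CPM + 1) of −0.64 with miR-1298-5p and −0.61 with miR-448-3p, and −0.88 and −0.82 after the group means were taken off. Without the 2 libraries farthest from the median miR-124-3p level, r was −0.56 and −0.47. The neuron list had a median log2 fold change of 0.15 in LPS against saline and −0.075 in LPS + GAS against LPS, with 0 of 7 called in both. Strong transcription of Htr2c in the choroid plexus is background knowledge, and from which cells the members' reads came was not tested. These libraries of whole tissue hold no measurement of the cell of origin.

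The miRNAs outside the 7 with the pattern most like the summed members were ranked by Pearson's r of log2(CPM + 1) over the 9 libraries, as a description of libraries of which 4 stand above the other 5. Of 622 candidates, whose median r was 0.0207, 15 were above 0.8. The first 4 were miR-34c-5p (r = 0.966), miR-34b-3p (0.953), miR-34b-5p (0.951) and miR-204-5p (0.941). MiR-34c-5p stood at 371, 53.5 and 88.4 CPM in saline, 189, 88.6 and 69.6 in LPS, and 725, 77.6 and 326 in LPS + GAS, with the same 4 libraries highest. Next came miR-3105-5p (0.937, from 1 to 25 reads), miR-34c-3p (0.917), miR-20b-5p (0.911) and miR-363-3p (0.894, from 3 to 33 reads), the latter pair also X-linked. The other arms miR-448-5p (0.903) and miR-764-5p (0.869), from the same introns, completed the first 10. By contrast miR-449a-5p, of the same multiciliated list as miR-34, had r = 0.157 and stayed within 31.2 to 52.2 CPM. At the other end, miR-212-3p of the neuron list was last of the 622 (−0.852), and the 8 miRNAs of the epithelium list lay between −0.64 and −0.331. Of the neuron list, miR-138-5p (0.481) and miR-137-3p (0.445) had positive values.

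Among the members themselves, the same measure over the same 9 libraries was 0.988 for miR-1298-5p with miR-448-3p, whose hairpins lie in different introns, and 0.985 for both arms of Mir1264. It was 0.605 for both arms of Mir1298, 0.299 when the 2 libraries farthest from the median were left out, and 0.756 after the group means were taken off. Here too 4 libraries stand above the other 5, and all points share a library and its scaling.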

How the data were processed

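Small RNA libraries of 9 hippocampi were sequenced by the authors on a BGISEQ-500. The authors deposited read counts per mature miRNA without normalization, and beside them exp counts, whole numbers no larger than the read counts, made in a way that no source states. For the aligner, the counter and the miRBase release nothing is given in the sources used here. The submitters' processing notes name GRCm38.p6. Columns with the authors' group averages and their comparisons (log2 fold changes, p-values and q-values) were not used, and 0 columns belonged to no mapped sample.

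The analysis used R 4.3.3 and edgeR 4.0.16, with TMM scaling, at least 10 reads in at least 3 of 9 libraries, 1 quasi-likelihood fit with a mean per group, and Benjamini-Hochberg adjustment over 628 miRNAs. CPM use the TMM-scaled totals, and at this depth 10 reads are about 1 CPM. Single values were also compared by exact permutation over 20 divisions of 6 libraries. Intervals are Clopper-Pearson. The p-values set differences between group means against the spread between these mice. Scripts were tested on simulated data. The alternatives were DESeq2 1.42.0 size factors and Wald test, limma 3.58.1 voom, other filters, the exp counts, 2-group fits, a replicate block, no minimum fold change and leaving out each library.

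The members and lists were chosen with earlier results of these data known. Named are the 7 miRNAs, the other arms of their hairpins and of Mir764, the marker lists, miRNAs sharing a seed and the 10 with the most similar pattern. MiR-153-3p and miR-12187-3p, which share only bases 2 to 7, were named after the sequences were seen. Sequences and positions of mature miRNAs are from RefSeq (GRCm38.p6) and hairpins were placed with GENCODE M21. For replicates 1, 2 and 3, deviations of same-numbered libraries from their group means correlated by 0.338, 0.218 and −0.257 (LPS against saline), −0.153, 0.0318 and −0.238 (LPS + GAS against LPS) and 0.224, 0.243 and 0.275 for LPS + GAS against saline (0.12, 0.163 and 0.315 without the members). Every pair was above 0.1 in the last alone, a pattern read from these same data. Since no source names a shared litter or day, the main fit and the permutations left all libraries unpaired. The replicate block was run only as an alternative.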

Additional observations from a re-analysis of the deposited data

How the results depend on the processing

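None of the 6 members was called under any alternative run. The number of miRNAs called in LPS vs saline, 0, was 2 with no filter and 1 with the DESeq2 Wald test, and it was 0 to 1 when a library was left out (1 without LPS replicate 2 or LPS + GAS replicate 3). In LPS + GAS vs LPS it was 0 to 1 (1 without LPS replicate 2). Log2 fold changes in LPS vs saline, with a library left out, ran from −2.56 to 1.50 for miR-448-3p, −1.87 to 1.37 for miR-1298-5p, −1.27 to 0.68 for miR-1264-3p and −1.26 to 0.34 for miR-1264-5p. For miR-1298-3p they ran from −0.78 to 0.39 in LPS + GAS vs LPS and from −0.50 to 0.62 in LPS + GAS vs saline, where voom gave −0.20 and the replicate block −0.0022. The block changed no call. For miR-1912-3p voom gave 0.47 in LPS vs saline, and it failed the filter at 50 reads and in fits without saline replicate 1, LPS + GAS replicate 1 or LPS + GAS replicate 3. The log2 arm ratio of Mir1264 in LPS + GAS vs LPS was −0.011 with the exp values and −0.088 to 0.12 with a library left out. Against saline it spanned −0.24 to 0.094 for LPS and −0.23 to 0.11 for LPS + GAS. That of Mir1298 in LPS vs saline ran from −1.42 to 0.41. The summed level with the exp values was 1937 CPM in saline, 1265 in LPS and 4197 in LPS + GAS, since the members take a larger share of those totals. The causes of the other changes were not tested. With 3 mice a group, SEs of 0.53 to 1.57 limit every member's comparison, and miR-1912-3p is limited by its counts.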
